A study of Mus musculus with 12 samples.

Results

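SINE B4 and ID loci are annotated copies of 2 related families of short interspersed repeats in the mouse genome. The loci described here are the rows of the repeat table whose family is exactly B4 or ID and whose mean over the 6 libraries was at least 20 reads. The loci were thus selected on their level over all libraries, not on any difference between groups. Reads were recovered by dividing each deposited value by the smallest nonzero value of its column. The rule kept 31240 of 342182 B4 and ID loci, 9.13% of them, out of 4929385 repeat loci of any family. It kept 28490 of 308556 B4 loci (9.23%) and 2750 of 33626 ID loci (8.18%). A further split used the other deposited table, a list of 74299 genomic intervals: 319 B4 loci and 29 ID loci overlapped an interval by at least 1 bp, and 28171 B4 loci and 2721 ID loci lay outside. The threshold fell in a dense part of the distribution. The 224 loci with a mean of exactly 20 reads were kept, among them the B4 locus chr1:4974370-4974626 with 16 and 25 reads in WT, 20 and 20 in KO, with 23 and 16 in ΔcIDR. The 231 loci with the next lower mean, 19.8 reads, were left out, among them the B4 locus chr1:20863545-20863658 with 15 and 19, 30 and 25, and 16 and 14 reads.

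The study profiled N6-methyladenosine (m6A), a methyl mark on RNA, by immunoprecipitating chromatin-associated RNA of E14TG2a mouse embryonic stem cells with an m6A antibody. All cells were grown with LIF and the inhibitors PD0325901 and CHIR99021. The groups were wild type (WT), cells whose genotype is given as Alkbh5 KO, and cells with the allele Alkbh5 del-cIDR (ΔcIDR), which the title of the study ties to an intrinsically disordered region. Of 12 samples, 6 libraries, 2 per group, are in the tables used here and were read as immunoprecipitated, since the labels call the values a normalized m6A matrix. ΔcIDR was assigned by elimination to the columns that carry the name KI. The KO columns both carry the name KO6, so they may come from 1 line, and nothing states that replicates of any group came from separate cultures. P-values therefore measure the spread between these libraries only. The tables used here held 0 columns read as input, so m6A, the amount of RNA and the number of gene copies cannot be told apart in any difference below. As these are bulk samples, fewer cells of a kind and less RNA per cell cannot be told apart either. The check of Alkbh5 itself was not analysed here, because the tables carry no gene names.

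SINEs are non-autonomous retrotransposons that borrow the machinery of LINE-1 to spread. ID elements descend from the BC1 RNA gene and, further back, from a tRNA, and carry an internal RNA polymerase III promoter. B4 elements join an ID-like 5′ part to a B1-like 3′ part. Most old copies are read as passengers inside longer RNA polymerase II transcripts, such as introns of unspliced RNA, which are abundant on chromatin. ALKBH5 is a nuclear enzyme that removes m6A from RNA.

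The ID loci were much shorter than the B4 loci. The median length was 156 bp for B4 (interquartile range 122 to 213) and 72 bp for ID (64 to 79), close to the medians of 140 and 71 bp over all loci of those families in the table. Most copies in the table had almost no reads, with a median mean of 0.167 reads per locus in each family. Among the loci kept, the median was 40.0 reads for B4 and 37.0 for ID, 4140 loci reached a mean of 100 reads, and 16 reached 1000, all of them B4. Per length, the order of the families turned around. The median deposited signal per 100 bp was 129.4 at ID loci and 64.2 at B4 loci, beside 82.9 at B1 and 54.1 at B2 loci taken with the same minimum. The minimum is a number of reads per locus, so a short locus needs more reads per length to meet it. The loci kept were spread over the genome: they made up 12.1% of the B4 and ID loci of chromosome 8, the largest share of any full chromosome, 7.12% on chromosome 13, the smallest share of any autosome, 3.24% on the X and 0.29% on the Y.

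Depth was even across libraries. Between 20922839 and 26267351 reads per library fell on repeat loci, 8.0% to 8.79% of them on the B4 and ID loci described here. The deposited scale rests on the reads of a spike-in RNA that carries m6A, 1172 and 1106 in WT, 1379 and 1870 in KO, with 814 and 849 in ΔcIDR, so every value inherits the counting error of those numbers. The mean was at least 20 reads in all 3 groups at 24637 loci and in only 1 group at 1465 loci. At the latter, the threshold itself favours loci that differ, so counts are read beside those of all 234605 repeat loci with the same minimum. The B4 and ID loci are 13.3% of these.

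The brightest loci were B4 elements outside the intervals. The B4 locus with the highest signal, chr6:122714457-122714637, had 6442 and 6203 in WT, 8077 and 5437 in KO, with 7665 and 8359 in ΔcIDR, in units of deposited signal. The KO libraries lay on both sides of the WT libraries there, and both ΔcIDR libraries lay above them. The next B4 locus, chr6:49236233-49236453, had 5433 and 5686 in WT, 5727 and 3454 in KO, with 6695 and 6911 in ΔcIDR. None of the 5 brightest B4 loci outside intervals passed the test in KO or ΔcIDR against WT. The brightest ID locus, chr1:132941947-132942029, stood apart: it had 1723 and 1914 in WT, 1090 and 677.8 in KO, with 3171 and 3069 in ΔcIDR. The 3 groups did not overlap, and the locus fell in KO by 1.08 ± 0.32 on the log2 scale (SE, n = 2 per group; limma, Benjamini-Hochberg adjusted p = 0.0249). The call was lost in 4 of 6 omissions of 1 library, with values from 2.8e-05 to 0.696. Its ΔcIDR change of 0.78 ± 0.32 had an adjusted p of 0.361. The brightest ID locus inside an interval, chr2:150772952-150773057, had 1100 and 988.9 in WT, 1002 and 564.6 in KO, with 1244 and 1790 in ΔcIDR, and its KO and WT libraries overlapped. At the ID locus chr11:88930904-88930984 the signal was 335.8 and 353.4 in WT, 249.9 and 181.4 in KO, with 840.2 and 834.3 in ΔcIDR. The ΔcIDR libraries lay far above the rest. The change against WT of 1.28 ± 0.35 was the largest among the brightest loci of the 4 subsets, with a limma adjusted p of 0.116 on the deposited scale (0.00119 to 0.993 without a library) and 0.0236 once each library was centred on its median.

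**Figure D1:**
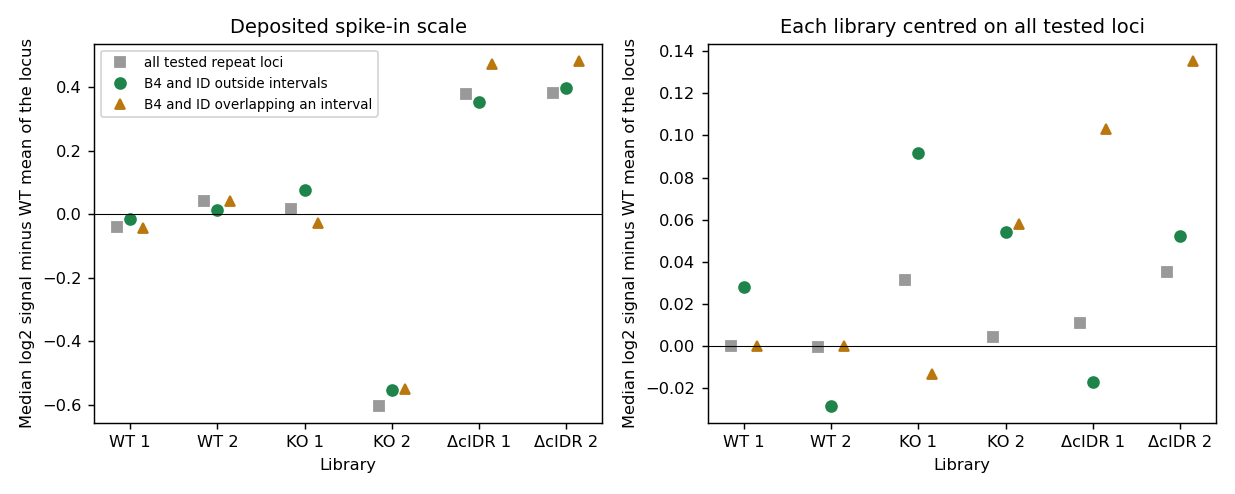
Median log2 signal minus the WT mean of the locus in each of the 6 libraries, on the deposited scale (left) and after centring each library (right), for all tested repeat loci (squares), B4 and ID loci outside intervals (circles) and those overlapping an interval (triangles). On the deposited scale the KO libraries stand apart from each other, and after centring the overlapping loci lie highest in both ΔcIDR libraries.

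The 2 KO libraries disagreed on the deposited scale. The median signal of the B4 and ID loci was 90.3 and 93.2 in WT, 96.4 and 62.4 in KO, with 116.7 and 118.3 in ΔcIDR. KO replicate 1 thus lay above both WT libraries and KO replicate 2 far below them. Over all tested repeat loci KO replicate 2 was again the lowest library, with 92.6 and 98.2, 94.5 and 62.4, and 123.4 and 121.5. Between the KO replicates the median locus differed by 0.62 on the log2 scale, against -0.03 in WT and -0.05 in ΔcIDR. After each library was centred on the median of all tested loci, the median absolute difference between replicates was 0.316 in WT, 0.264 in KO and 0.317 in ΔcIDR, so the KO replicates were then no farther apart than the others. Results are therefore given on the deposited scale and, where it matters, on the centred scale. On the centred scale a change shows only how a locus moved against the rest of the repeats.

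In KO against WT, most B4 and ID loci that changed were lower in KO. On the deposited scale 719 loci fell and 57 rose, 776 in all, or 2.48% of the loci (limma, Benjamini-Hochberg adjusted over all tested loci). Among all tested repeat loci 3.93% were called, 3.7% lower and 0.226% higher, so the share among B4 and ID loci was the smaller one, a difference that was not tested. The median change was -0.25 (interquartile range -0.58 to 0.08), against -0.30 over all tested loci. B4 had 50 loci higher and 650 lower, and ID had 7 higher and 69 lower, shares of 2.46% and 2.76%. B1 had 33 and 735 (2.25%) and B2 34 and 982 (2.71%). The share called thus lay between 2.25% and 2.76% in all 4 families, below that of all tested loci. The libraries of KO and WT did not overlap at 39.1% of B4 and ID loci and at 42.3% of all tested loci.

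The direction of most calls rests on the scale. On the centred scale 970 B4 and ID loci rose and 818 fell, so that 54.3% of calls were higher where the deposited scale gave 7.3%. The higher loci were 3.10% and the lower loci 2.62% of the B4 and ID loci, against 3.15% and 4.22% of all tested loci. The loci lower on the deposited scale largely stayed lower, 654 of 719, and 56 of the 57 higher loci stayed higher. The counts also rest on single libraries: leaving out WT replicate 2 left 27 calls and leaving out WT replicate 1 left 55, while leaving out KO replicate 1, the higher KO library, gave 5344, and leaving out KO replicate 2 gave 411, 128 of them higher. Without ΔcIDR replicate 1 or 2, which enter only through the estimate of spread, 262 and 261 loci were called. The counts without 1 library on the centred scale ranged from 407 to 2129.

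Against all tested repeats, B4 and ID loci stood slightly high in KO. Their median relative to all tested loci was 0.028 and -0.028 in the WT libraries, 0.059 and 0.050 in KO and -0.026 and 0.018 in ΔcIDR, in log2 units. Both KO libraries lay above both WT libraries, and the relative change was 0.054 ± 0.028 (SE from medians per library, n = 2 per group). By the same measure it was 0.055 ± 0.027 for B4, 0.054 ± 0.040 for ID, 0.020 ± 0.017 for B1 and -0.002 ± 0.018 for B2. For B4 and ID together, the median change over loci minus that of all tested loci was also 0.054. Leaving out 1 library moved it from 0.035 without WT replicate 2 to 0.073 without WT replicate 1. With 2 libraries a group no exact permutation test can pass a threshold of 0.05, so no test is given.

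The loci with the largest changes, here and in the other comparisons, were taken from called loci whose libraries of the groups compared did not overlap. That separation therefore follows from the choice. Among these, the 8 loci with the largest falls in KO were all B4 elements. The B4 locus chr5:144548965-144549262 had a signal of 83.4 and 76.1 in WT, 7.87 and 1.45 in KO, with 100.02 and 99.1 in ΔcIDR. The KO values correspond to 4 reads and 1 read, and both other groups lay far above them. The change was -4.31 ± 0.72 (limma adjusted p = 1.31e-06), and the adjusted p ranged from 5.89e-06 to 0.00475 without each library in turn.

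The B4 locus chr12:104966991-104967084 had 74.1 and 90.8 in WT, 3.94 and 11.6 in KO, with 116.7 and 137.5 in ΔcIDR. The groups again did not overlap, with a KO change of -3.49 ± 0.60 (limma adjusted p = 3.05e-06, and at most 0.0191 without a library). The B4 locus chr7:45849423-45849638 had 83.4 and 83.4 in WT, 11.8 and 4.35 in KO, with 123.4 and 134.3 in ΔcIDR. Its change was -3.44 ± 0.59 (limma adjusted p = 2.98e-06, at most 0.0102 without a library). Another call was less secure. At the B4 locus chr19:28612819-28612907, with 67.2 and 63.8 in WT, 39.4 and 0 in KO, with 80.02 and 108.7 in ΔcIDR, 1 KO library had no reads and the other lay closer to WT, and the limma adjusted p went from 5.46e-05 to 0.546 without KO replicate 2. The other omissions gave values down to 4.23e-06.

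A pair of neighbouring B4 loci on chromosome 16 fell together in KO and stood high in ΔcIDR. The locus chr16:4994768-4995016 had 67.2 and 76.1 in WT, 7.87 and 7.26 in KO, with 176.7 and 169.4 in ΔcIDR. The locus chr16:5004351-5004621 had 243.1 and 338.6 in WT, 39.4 and 53.7 in KO, with 653.5 and 741.6 in ΔcIDR. In each, every ΔcIDR library exceeded every WT library and every WT library exceeded every KO library. The KO changes were -3.16 ± 0.57 (limma adjusted p = 1.28e-05, at most 0.0246 without a library) and -2.63 ± 0.37 (3.65e-09, at most 0.00782 without a library), and the ΔcIDR changes against WT of 1.27 ± 0.57 and 1.28 ± 0.37 had adjusted p-values of 0.395 and 0.199. Further along the same chromosome, chr16:90984998-90985239 showed the same order of groups, with 53.3 and 112.9 in WT, 7.87 and 11.6 in KO, with 183.4 and 268.5 in ΔcIDR. Its fall in KO (adjusted p = 6.53e-06) did not pass without WT replicate 2 (0.124), while the lowest value over the omissions was 0.000242.

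The loci with the largest rises in KO described here each lost their call without at least 1 library. The B4 locus chr7:30183229-30183360 had 67.2 and 27.0 in WT, 293.2 and 204.6 in KO, with 93.4 and 28.8 in ΔcIDR. Both KO libraries lay above all the others, and the change was 2.51 ± 0.45 (limma adjusted p = 1.14e-05). Without WT replicate 2 the adjusted p was 0.183, and the lowest over the omissions was 9.23e-05.

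The B4 locus chr6:134240636-134240877 had 18.5 and 7.36 in WT, 112.2 and 76.9 in KO, with 40.0 and 35.2 in ΔcIDR. Its rise in KO of 2.93 ± 0.67 (limma adjusted p = 0.00149) was the largest called, and it too did not pass without WT replicate 2 (0.181, against 0.00133 at the lowest). The B4 locus chr11:87649454-87649616 had 20.8 and 31.9 in WT, 183.0 and 127.7 in KO, with 6.67 and 28.8 in ΔcIDR, and rose in KO by 2.54 ± 0.63 (limma adjusted p = 0.00441, from 0.000978 to 0.169 without a library, with 4 of 6 omissions ending the call). Only the KO mean reached 20 reads at chr6:134240636-134240877, at chr11:87649454-87649616 and at the ID locus given next. The threshold itself thus favoured these rises. At these B4 loci both KO libraries exceeded every other library, and at chr6:134240636-134240877 both ΔcIDR libraries also exceeded both WT libraries. The KO libraries were likewise the highest at the only ID locus among the 8 largest rises, on chromosome 18, with 55.6 and 19.6 in WT, 185.0 and 133.5 in KO, with 23.3 and 28.8 in ΔcIDR (change 2.23 ± 0.54, limma adjusted p = 0.00305, from 0.00453 to 0.587 without a library, lost without WT replicate 2 or KO replicate 2).

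**Figure D2:**
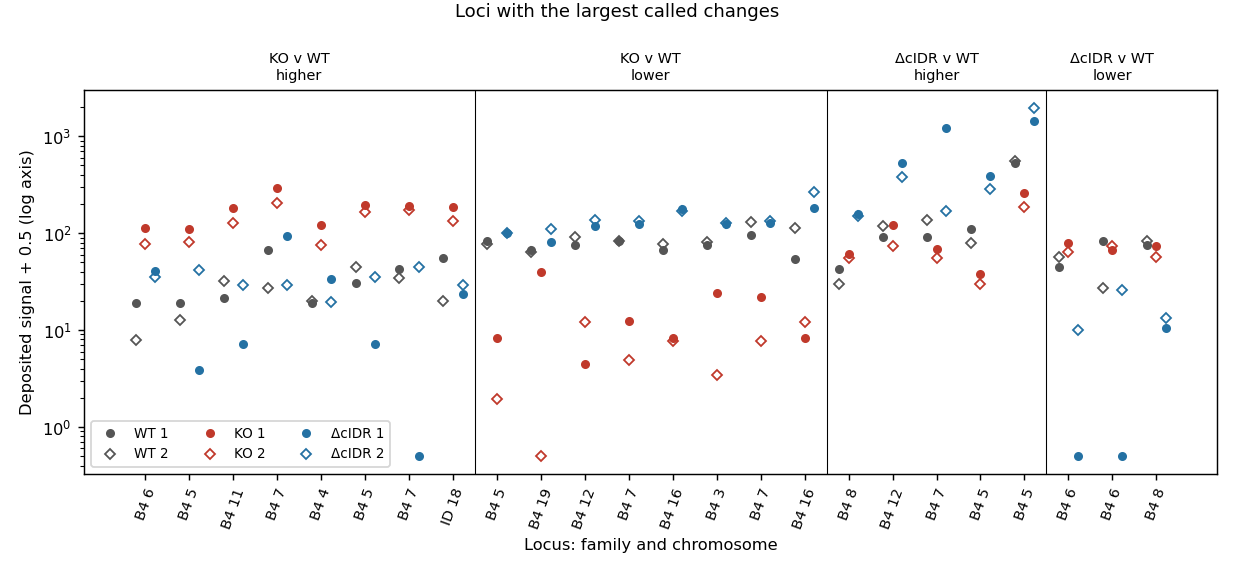
Deposited signal plus 0.5, on a log axis, in each of the 6 libraries at the loci with the largest called changes, 1 column per locus, with points coloured by group. At loci called lower in KO the KO points lie below the WT and ΔcIDR points, and at loci called higher in KO they lie above them.

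Many called loci lay close to another called one, counted here among B4 and ID loci only. Runs over all tested loci were not counted, so whether these shares are particular to B4 and ID was not tested. Of the 719 loci lower in KO, 389 (54.1%) sat in runs of 2 or more called in the same direction with gaps of at most 50 kb, and the longest run held 12. Of the 57 higher loci 16 (28.1%) sat in runs, the longest of 5. After centring 458 of 818 lower and 565 of 970 higher loci were in runs. As the counts depend on the libraries, so do the runs: without WT replicate 2 only 3 of 25 lower loci were in one, and without KO replicate 1 3929 of 5313 were.

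The longest run lies at chr12:17744951-17837191, a stretch of 92.2 kb with 17 B4 and ID loci. Of these 12 were lower in KO, and 35 of 47 tested repeat loci of other families there were lower too. The summed signal of the B4 and ID loci was 3538 and 3632 in WT, 1687 and 1132 in KO, with 5515 and 5454 in ΔcIDR. All 17 had a negative KO change, from -1.76 to -0.85 with a median of -1.37. The number called was 12 on the centred scale as well, but none passed without WT replicate 1 or without WT replicate 2, and 16 passed without KO replicate 1.

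A stretch at chr14:21499308-21523763 was denser, with 10 of 12 B4 and ID loci and 26 of 35 other repeats lower in KO. Their summed signal was 3881 and 4135 in WT, 1620 and 1176 in KO, with 4858 and 4801 in ΔcIDR. The number called was 10 on the centred scale, 0 without WT replicate 2, 1 without WT replicate 1 and between 7 and 12 without another library. At chr10:61670589-61724672, 10 of 18 loci and 19 of 28 other repeats were lower, with sums of 5414 and 5649 in WT, 2891 and 1924 in KO, with 8792 and 8740 in ΔcIDR, and 0 were called without either WT library and 2 without either ΔcIDR library. In these stretches the sums of the groups did not overlap. KO below WT follows from how the runs were chosen, and ΔcIDR lay above WT at the median of all tested loci too, by 0.37 on the log2 scale.

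There were 58 runs with 3 or more loci lower in KO. The stretch chr7:130544478-130585258, with 8 of 10 loci called, had sums of 1591 and 1703 in WT, 558.9 and 384.6 in KO, with 2357 and 2404 in ΔcIDR, and kept at least 4 calls without any library other than WT replicate 2, which left 1. It holds the B4 locus chr7:130565138-130565318, with 94.9 and 130.1 in WT, 21.7 and 7.26 in KO, with 126.7 and 134.3 in ΔcIDR, whose KO change of -3.09 ± 0.51 passed without each library in turn (limma adjusted p = 1.11e-06, from 1.2e-05 to 0.0264). On an unplaced scaffold of the build, 8 of 14 B4 and ID loci met the minimum and 6 of these were lower in KO, with a median centred change of -1.19. Its brightest B4 locus, at 26360 to 26474, had 2739 and 2255 in WT, 1234 and 866.4 in KO, with 3504 and 3689 in ΔcIDR, and the groups did not overlap.

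Only 2 runs held 3 or more loci higher in KO. At chr6:49119467-49147610, 5 of 13 B4 loci were higher in KO on the deposited scale and 10 on the centred scale, beside 3 of 15 other repeats. The sums were 831.3 and 954.6 in WT, 2490 and 1562 in KO, with 896.9 and 930.2 in ΔcIDR. The KO libraries lay above the rest, and the ΔcIDR libraries lay between those of WT. Leaving out either WT library left 0 calls, and other omissions left 1 to 3. At chr7:30179280-30183360, all 3 loci were higher, with sums of 324.2 and 333.7, 1179 and 950.6, and 330.1 and 249.3. None passed without WT replicate 2 and 1 without WT replicate 1.

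**Figure D3:**
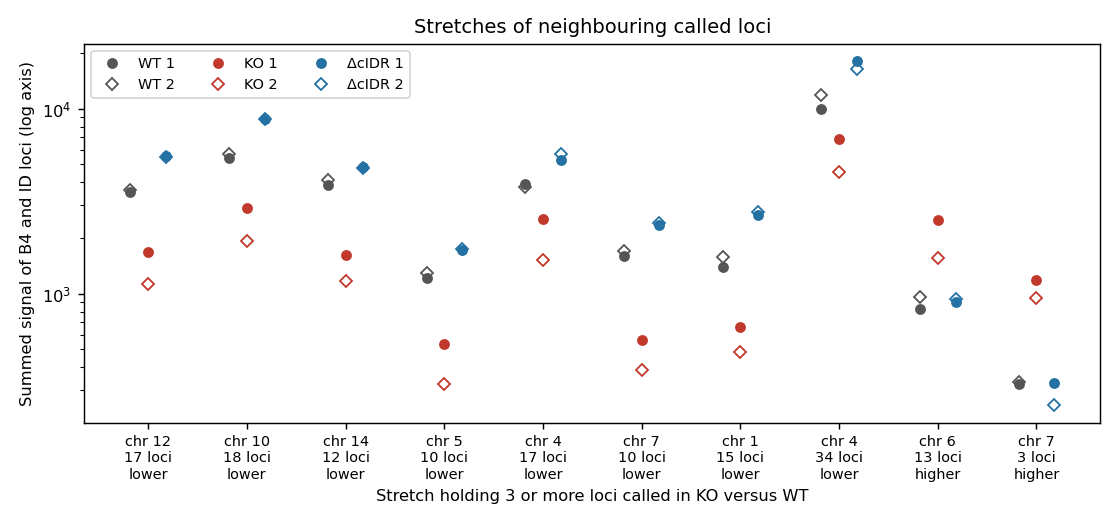
Summed deposited signal of all B4 and ID loci, on a log axis, in each of the 6 libraries for selected stretches that hold 3 or more loci called in KO against WT. Those called lower are among the runs with the most calls, and both runs called higher are shown. In the stretches shown as called lower the KO points lie lowest and the ΔcIDR points highest, an order found in 56 of all 58 such runs. In those called higher the KO points lie above both other groups.

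Changes at B4 and ID loci went with changes of whatever repeat lay next to them. The nearest tested repeat of another family was at a median distance of 529 bp, and 330 of 776 called loci (42.5%) had that neighbour called in the same direction in KO against WT. Of all tested loci 3.93% were called in either direction. The share with a called neighbour was not taken for other families, so whether it is particular to B4 and ID was not tested. Pearson's r between the KO change of a locus and that of its neighbour was 0.641 where the gap was under 0.2 kb (7878 loci), 0.599 from there to 1 kb (13409), 0.555 to 5 kb (8669), 0.511 to 20 kb (1158) and 0.342 beyond (114). These correlations describe loci, which share the libraries, and nearby loci can share the same reads and transcripts. For ΔcIDR against WT, r over all 31240 loci was 0.276, and for KO against WT it was 0.588.

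**Figure D4:**
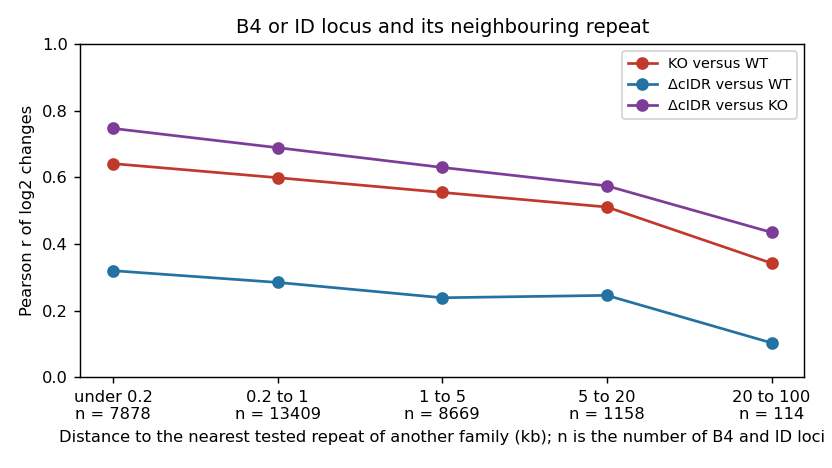
Pearson's r between the log2 change of a B4 or ID locus and that of the nearest tested repeat of another family, by distance class in kb, for each comparison, with the number of loci given as n. In KO against WT the correlation is 0.641 in the nearest class and 0.342 in the farthest.

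Chromosomes 6 and 8 and a stretch of chromosome 11 stood apart in KO. After centring, the median KO change was 0.42 over 1896 loci on chromosome 6, with libraries at 0.472 and 0.403, and 0.36 over 2105 loci on chromosome 8, with libraries at 0.369 and 0.369. It was 0.54 over 667 loci between 8 and 56 Mb of chromosome 11 (libraries at 0.580 and 0.499), bounds that come from earlier results of these data, and 0.02 on the rest of that chromosome. On all other chromosomes it was 0.01 over 24618 loci. In ΔcIDR the medians were -0.16 on chromosome 6 and -0.19 on chromosome 8, against 0.04 elsewhere. Over the tested repeat loci of other families the centred KO medians were 0.35 on chromosome 6 and 0.32 on chromosome 8, so the shift was not limited to B4 and ID. Differences in gene copies, RNA and m6A cannot be told apart.

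Such chromosome-wide shifts reach into the counts above. Chromosomes 6 and 8 held 4001 loci, 12.8% of the total. They held 375 of the 970 loci higher in KO on the centred scale (38.7%), 22 of the 57 higher on the deposited scale (38.6%) and 24 of the 719 lower (3.34%). The share of centred higher calls ranged from 35.8% to 39.3% without each library in turn. With chromosomes 6, 8 and 11 left out, 746 B4 and ID loci were called in KO against WT, 3.03% of the 24618 loci left, beside 4.69% of all loci tested then.

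**Figure D5:**
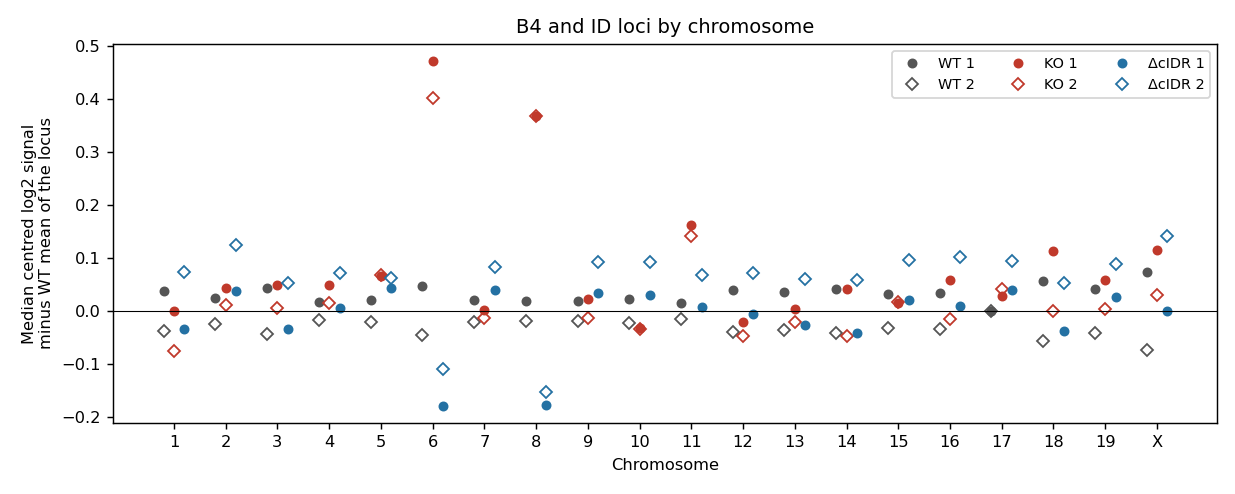
Median centred log2 signal of B4 and ID loci minus the WT mean of the locus, by chromosome, with 1 point per library. Both KO libraries lie above 0.3 on chromosomes 6 and 8, where both ΔcIDR libraries lie below -0.1.

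In ΔcIDR against WT almost no locus changed by the test on all 6 libraries, although most medians were higher. With only the WT and ΔcIDR libraries in the fit, 1426 loci were called, 1413 of them higher. That was 4.56% of the loci, against 6.27% of all tested loci. The median change was 0.37 on the deposited scale, and also 0.37 over all tested loci. By the test on all 6 libraries, 5 loci rose and 4 fell, 9 in all or 0.0288% of the loci, where the background was 0.098%, with 0.0716% higher and 0.0264% lower. All 9 were B4. No ID locus passed (limma; 291 had an unadjusted p under 0.05, and the centred scale called 1). After centring 8 rose and 26 fell, 0.0256% and 0.0832% of the loci, against 0.11% and 0.133% of all tested loci. The relative median was -0.0009 and ranged from -0.026 to 0.018 without 1 library. Taken from the medians per library, the difference was -0.0041 ± 0.036 (SE), smaller than its error. The count depended on the libraries: it was 0 without WT replicate 1 (limma; 1015 loci with an unadjusted p under 0.05) and 0 without WT replicate 2 (1338), 1 and 4 without ΔcIDR replicate 1 and 2, but 1164 and 1174 without KO replicate 1 or 2.

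The rises in ΔcIDR included 2 neighbouring B4 loci on chromosome 5. The brighter, chr5:138333811-138334094, had 528.0 and 552.1 in WT, 259.8 and 185.8 in KO, with 1427 and 1976 in ΔcIDR. The dimmer, chr5:138359299-138359443, had 111.2 and 78.5 in WT, 37.4 and 29.0 in KO, with 386.8 and 287.7 in ΔcIDR. Both kept the order KO, WT, ΔcIDR with no overlap. Their ΔcIDR changes were 1.64 ± 0.33 (limma adjusted p = 0.0031, from 5.25e-05 to 0.978 without a library) and 1.83 ± 0.43 (0.0262, from 0.00271 to 0.895), and neither passed without a WT or a ΔcIDR library. In KO the changes were -1.30 (limma adjusted p = 0.00678, from 0.000106 to 0.462 without a library) and -1.49 (0.0196, from 0.00355 to 0.481), lost in 4 and 5 of 6 omissions.

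At some other loci both ΔcIDR libraries also lay above all the others. The B4 locus chr12:18936547-18936762 had 90.3 and 117.8 in WT, 120.1 and 74.0 in KO, with 526.8 and 377.2 in ΔcIDR, and its WT and KO libraries overlapped. The ΔcIDR change was 2.11 ± 0.39 (limma adjusted p = 0.000339, from 0.000193 to 0.847 without a library). The B4 locus chr7:80948740-80948879 had 90.3 and 135.0 in WT, 68.9 and 55.2 in KO, with 1224 and 169.4 in ΔcIDR, so that 1 library carried the difference, and its adjusted p of 0.00122 became 0.166 after centring and up to 0.993 without a library (8.15e-06 at the lowest).

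On the deposited scale 3 of the 4 falls in ΔcIDR lay on chromosomes 6 and 8. After centring 10 of 26 did (38.5%), where these chromosomes hold 12.8% of the B4 and ID loci. Of the 3, the B4 locus chr6:67026808-67027056 had a limma adjusted p of 0.0451, which was 0.152 after centring. The B4 locus chr8:122577281-122577506 had 74.1 and 83.4 in WT, 72.8 and 56.6 in KO, with 10.0 and 12.8 in ΔcIDR. WT lay above KO and both lay far above ΔcIDR, whose change was -2.74 ± 0.63 (limma adjusted p = 0.0199, from 0.00881 to 0.728 without a library). The B4 locus chr6:134311029-134311240 had 44.0 and 56.4 in WT, 78.7 and 63.9 in KO, with 0 and 9.59 in ΔcIDR, which is 3 reads in all, so no fold is given. The other fall called on the deposited scale lay off these chromosomes. It was the B4 locus chr7:40812662-40812825, inside an interval, with 41.7 and 34.4 in WT, 190.9 and 171.3 in KO, with 0 and 44.8 in ΔcIDR. Its ΔcIDR and WT libraries overlapped. Only its KO mean reached the minimum number of reads, so the threshold itself favoured its rise in KO. That rise of 2.24 ± 0.71 had a limma adjusted p of 0.0452, and of 0.165 on the centred scale. The adjusted p lay between 0.00204 and 0.534 without a library, with 5 of 6 omissions ending the call.

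The widest gap was between the 2 mutants. In ΔcIDR against KO 6996 B4 and ID loci were higher and 202 lower, 7198 in all or 23.0%, against 27.3% of all tested loci (26.5% higher and 0.774% lower). The median change was 0.61, against 0.66 over all tested loci. B4 had 6373 higher and 191 lower, and ID had 623 and 11. Relative to all tested loci the median was -0.049, and both ΔcIDR libraries lay below both KO libraries. It ranged from -0.024 without ΔcIDR replicate 1 to -0.074 without ΔcIDR replicate 2. Taken from the medians per library, the difference was -0.059 ± 0.023 (SE).

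As in KO against WT, centring moved the split of higher and lower calls. After centring 2089 loci were higher and 2771 lower, 6.69% and 8.87% of the loci against 9.59% and 8.44% of all tested loci, so that 43.0% of calls were higher where the deposited scale gave 97.2%. Of the 202 lower on the deposited scale 104 lay on chromosomes 6 and 8. The count was 1291 without ΔcIDR replicate 1, 1499 without ΔcIDR replicate 2, 4406 and 4368 without WT replicate 1 or 2, 3635 without KO replicate 2 and 14560 without KO replicate 1. This comparison shares its libraries with the others, so each locus is described by its values in all 3 groups.

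The locus with the smallest adjusted p among those named in ΔcIDR against KO was chr16:5004351-5004621, whose values are given above, with a difference of 3.91 ± 0.37 (limma adjusted p = 4.1e-22, and at most 6.12e-09 without a library). An ID locus was among the largest falls. At chr16:48137242-48137325 the signal was 32.4 and 61.4 in WT, 116.1 and 76.9 in KO, with 26.7 and 3.20 in ΔcIDR, with no overlap between the 3 groups. The difference between ΔcIDR and KO was -3.24 ± 0.67 (limma adjusted p = 5.06e-05, from 9.75e-07 to 0.0685 without a library). It did not pass without ΔcIDR replicate 2. Only the KO mean reached the minimum number of reads at this locus, so the threshold itself favoured a KO level above ΔcIDR. The signal per read was 3.33 in ΔcIDR replicate 1 and 3.20 in ΔcIDR replicate 2, so the ΔcIDR values rest on few reads.

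Few B4 and ID loci overlapped the deposited intervals. The share was 1.12% for B4 and 1.05% for ID, with 1.44% for B1 and 0.924% for B2, while 6.93% of all tested repeat loci overlapped one. Of the 348 overlapping loci, 216 had at least 50% of their length inside and 135 lay wholly inside, with a median overlap of 85 bp. Overlapping loci were brighter, with a median signal per 100 bp of 97.8 against 69.2 outside. Which libraries were used to define the intervals is not given in the sources used here, so the split is described without a test.

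Overlapping loci stood slightly higher in ΔcIDR than loci outside. The difference between the medians of overlapping and outside loci, taken per library relative to WT, was -0.028 and 0.028 in WT, -0.105 and 0.003 in KO, with 0.120 and 0.083 in ΔcIDR. The ΔcIDR libraries did not overlap with those of WT, with a difference of 0.10 ± 0.03 (SE, n = 2 per group), and it was 0.100 ± 0.031 without chromosomes 6, 8 and 11. For KO against WT the difference of -0.05 ± 0.06 was within its error. The same measure for ΔcIDR against WT was 0.065 ± 0.035 at B1 loci and 0.023 ± 0.046 at B2 loci, and 0.117 ± 0.113 at the 29 overlapping ID loci alone. Over all tested repeat loci it was -0.005 ± 0.129, with the ΔcIDR libraries at 0.106 and -0.116, on both sides of those of WT. In ΔcIDR against KO 133 of the 348 overlapping loci were called (38.2%), 130 of them higher. The share was 22.9% of the loci outside and 27.3% of all tested loci. Overlapping loci had more reads, with a median of 50.9 against 39.5 outside. With a minimum of 50 reads, 32.7% of B4 and ID loci and 38.8% of all loci tested then were called. Whether the share differs at equal reads was not tested.

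In KO against WT 13 of the 348 overlapping loci passed (3.74%), 11 lower and 2 higher, beside 3.93% of all tested loci and 2.47% of the B4 and ID loci outside intervals. The share is thus near the background. They were singled out after their values had been seen. The B4 locus chr16:7765906-7766120 had 224.6 and 196.3 in WT, 53.1 and 40.6 in KO, with 580.1 and 652.1 in ΔcIDR. The KO change was -2.16 ± 0.38 (limma adjusted p = 7.78e-06, from 1.15e-05 to 0.0347 without a library), and its change of 1.55 in ΔcIDR had an adjusted p of 0.0507. The B4 locus chr17:34773497-34773588 had 266.3 and 363.2 in WT, 94.5 and 79.8 in KO, with 820.2 and 754.4 in ΔcIDR. It fell in KO (limma adjusted p = 9.07e-05), although not without WT replicate 2 (0.217, against 3.77e-05 at the lowest).

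The brightest of these B4 loci, chr10:117525471-117525622, had 1035 and 1050 in WT, 507.8 and 364.3 in KO, with 2097 and 2107 in ΔcIDR. The groups did not overlap, and the KO change was -1.28 ± 0.32 (limma adjusted p = 0.00559, from 2.39e-05 to 0.442, lost in 4 of 6 omissions). The only ID locus among them, chr6:117856760-117856820, went the other way, with 25.5 and 103.1 in WT, 171.2 and 121.9 in KO, with 113.4 and 73.5 in ΔcIDR. Its rise of 1.48 ± 0.44 (limma adjusted p = 0.0271) was lost in 5 of 6 omissions, with values from 0.0208 to 0.855. Across the 348 loci and the 343 intervals they overlapped, the change at a locus and that of its interval had a Pearson's r of 0.838 for KO against WT and 0.709 for ΔcIDR against WT, as a description of features that share reads and libraries.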

How the data were processed

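The deposited values are read signals scaled by a spike-in, in a table of repeat loci and a table of intervals, each with 6 libraries on GRCm39. Per the labels, m6A spike-in RNA was added before fragmentation, and the tools in the submitters' processing notes are HISAT2, featureCounts, MACS2, bedtools, fastp, Picard and SAMtools, without versions or roles. Of the deposited signal values for repeats, 100% were whole reads times 1 factor per library (tolerance 1e-06), although values of 2 reads outnumbered values of 1. Family names carry no subfamily. Coordinates are as deposited, with the base of the start not given, and length is end minus start.

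limma 3.58.1 (R 4.3.3) was run on log2 values, after adding 0.5 to the signal, over all 234605 repeat loci with a mean of at least 20 reads. The model had 1 mean per group, used all 6 libraries and let the prior variance follow a trend. The 0.5 is less than the signal of 1 read, which was 1.45 in KO replicate 2 and up to 3.33 in ΔcIDR replicate 1. A library with 0 reads can therefore enlarge the change of a dim locus. Of the B4 and ID loci, 4 had 0 reads in at least 1 library. P-values were adjusted after Benjamini and Hochberg over all loci, and loci were called at 0.05. The fit was tested on simulated counts with a common spread over loci and no error in the scale of a library. Differences in scale between replicates were thus not covered. On the centred scale each library's median over all tested loci was subtracted. A relative median is the median change of a set minus that of all tested loci. edgeR 4.0.16 was run on the recovered reads as an alternative. Other steps used Python 3.11.15, pandas 2.3.3, numpy 2.4.6 and matplotlib 3.10.9.

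Named loci were, per comparison and direction, the 8 with the largest log2 change past the threshold whose groups did not overlap, the 5 with the highest signal in each subset, and the loci next to the minimum. The text gives a selection of these. No fold is given against a group with at most 3 reads. The loci, lists and settings were chosen with earlier results of these data known. Sequences of the loci and the genes around them were not analysed here.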

Additional observations from a re-analysis of the deposited data

How the results depend on the processing

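Precision is limited by 2 libraries a group and by the spike-in reads behind the scale. In KO against WT the 776 calls became 1788 on the centred scale, 2095 with edgeR and TMM factors, 423 with a minimum of 50 reads, where fewer loci were tested, and 219 with only the libraries compared. Without each library in turn the number ranged from 27 to 5344. In ΔcIDR against WT the 9 calls became 34 on the centred scale, 38 with no trend, 42 with edgeR and TMM factors and 1426 with only the libraries compared, and 0 to 1174 without a library. In ΔcIDR against KO the 7198 calls became 4357 with only the libraries compared, 3823 with a minimum of 50 reads, and 1291 to 14560 without a library. Except where a smaller set was tested, the cause was not tested. Leaving out a library on the centred scale, chosen after the data were seen, gave 407 to 2129 calls in KO against WT (464 without KO replicate 1 and 2067 without ΔcIDR replicate 2), 3 to 65 in ΔcIDR against WT and 1807 to 5089 in ΔcIDR against KO (1926 without KO replicate 2, and 3003 and 3556 without ΔcIDR replicate 1 and 2). The relative median of ΔcIDR against KO was -0.024 and -0.074 without ΔcIDR replicate 1 and 2, on both scales. With at least 50% of a locus required inside an interval, 216 loci counted as overlapping rather than 348. A pseudocount of 5 gave 719, 9 and 7253 calls, and edgeR on the deposited scale gave 649, 10 and 6683.

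Same-numbered libraries did not deviate together (r of 0.05 between WT and KO, -0.17 between WT and ΔcIDR and -0.06 between KO and ΔcIDR), so the numbers were not taken to pair samples. With the replicate number as a block, 431, 4 and 5517 loci were called. Named results were chosen for groups that did not overlap, so leaving out a library on the deposited scale could not turn a direction. Of 40 named results none changed direction under any alternative run. Of these, 3 lost their call on the centred scale, 6 with the block, and 7 to 17 without a library.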
